A study of Neurospora crassa with 10 samples.

Results

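The genes described here are those of Neurospora crassa, a filamentous fungus, that lie 150 kb or more from any domain of H3K9me3 in the wild type. H3K9me3, trimethylation of histone H3 at lysine 9, marks constitutive heterochromatin. For each gene of 4 deposited lists, the distance was taken from the nearer gene edge to the nearest edge of any of the 346 deposited H3K9me3 domains on the same linkage group. By this rule 1059 of 9729 listed genes (10.9%) were chosen by their measured distance, called far genes below. The remaining 8670 genes are called other genes. The 4 lists divide the genes by wild-type expression and were named the lowest 25%, 25-50%, 50-75% and highest 25%. The names of both middle lists were taken to mean that expression rises through them.

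The study followed newly made histone H3 in germinated conidia by chromatin immunoprecipitation with anti-FLAG beads. The labels give 10 libraries in 5 groups of 2. All strains carry hH3-3xFLAG driven by Pvvd, a blue-light promoter, integrated at his-3. The groups are dim-2 deleted with hph (mat a), dim-5 deleted with bar (mating type given as "?"), hda-1 deleted with hph (mat a), hpo deleted with hph (mating type given as "?") and the wild type background (mat a). All groups grew in darkness for 18 h at 32 °C, were held in 100 mM hydroxyurea for 3 h to block replication, then received 2 min of 465 nm light and were crosslinked in 0.5% formaldehyde. Values of the libraries were not analysed here, so their depth is unknown and no comparison between genotypes was made. The domain list and gene lists, named for the wild type, give positions only. How and in which culture expression was ranked is not stated in the sources used here.

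In Neurospora, the methyltransferase DIM-5 places H3K9me3, heterochromatin protein HP1 (encoded by hpo) binds the mark, and DIM-2 then methylates the DNA. A deacetylase complex that holds HDA-1, HP1, CDP-2 and CHAP acts in the same regions. The mark is known to cover AT-rich, repeat-derived DNA at centromeres, at telomeres and in scattered islands, while most genes lie in the euchromatin between. The far genes therefore lie in the middle of the widest stretches between deposited H3K9me3 domains. No other histone mark was used here, so whether these stretches are euchromatin throughout was not tested. Distances chose them and are given as a description. No test was run on any value below, because the lists hold no replicates that could be compared. Wilson 95% intervals of shares and order-statistic 95% intervals of medians cover counting error only and treat genes as independent, which neighbouring genes are not.

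The far genes formed 24 blocks, each lying between one pair of neighbouring domains and named here by its linkage group and its order along it (I-9, for example). A gene can be this far from a domain only in a gap over 300 kb wide, and the deposited domains left 25 such gaps among 339 gaps with a median width of 55.2 kb. The 24 gaps with far genes were 312 to 699 kb wide, with a median of 417 kb. Blocks held 2 to 124 far genes, with a median of 37.5, and the 5 largest together held 493 of them (46.6%). Linkage group I held 9 blocks and 411 far genes, 17.5% of its listed genes. Linkage group IV followed with 192 far genes in 3 blocks and III with 142 in 5 blocks. There were 102 on VI in 3 blocks, 83 on V in 1 block, 67 on II in 1 block and 62 on VII in 2 blocks. On V, far genes made up 5.25% of the listed genes, the smallest share of the 7 linkage groups.

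The distances ran from 150 kb to 348 kb, with a median of 201 kb and an interquartile range of 172 to 244 kb. The gene farthest from any domain was NCU02935 on I (8642193 to 8644145), at 348 kb. The 10 farthest genes, from NCU02941 to NCU02931, lay side by side, and 7 of them were in the 25-50% list. At the threshold, NCU16988 on V lay just inside at 150.06 kb, NCU04762 on VI at 150.15 kb and ty-1 on III at 150.27 kb. Just outside were NCU06227 on III at 149.81 kb, NCU05281 on IV at 149.81 kb and NCU05529 on VI at 149.80 kb. The domains that bound the 24 gaps ran from 0.6 to 216.9 kb, with a median of 4.65 kb against 9.6 kb over all 346 domains. Of these 48 boundaries, 12 were under 2 kb. A domain between adjoining gaps was counted for each of them. With only domains of 3 kb or longer, 1634 genes would meet the rule, and without linkage group I 648.

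**Figure D1:**
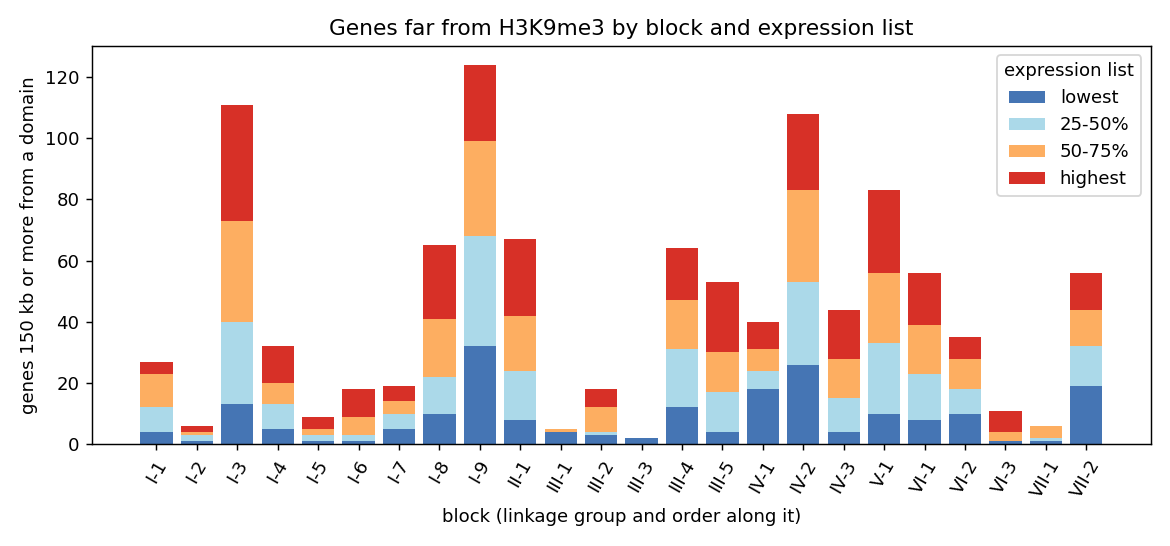
Number of genes 150 kb or more from a domain (vertical axis) in each of the 24 blocks, ordered along linkage groups I to VII, with colours for the 4 expression lists. The largest blocks are I-9 with 124 genes, I-3 with 111 and IV-2 with 108, and in IV-1 the lowest list takes 18 of 40 genes.

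All 4 expression lists were present among the far genes, in unequal numbers. The lowest list supplied 202 far genes, or 19.1% of them (Wilson 95% interval 16.8 to 21.6). The 25-50% list supplied 255 (24.1%, with an interval of 21.6 to 26.7) and the 50-75% list 288 (27.2%, interval 24.6 to 30.0). The highest list supplied 314, or 29.7% (interval 26.98 to 32.5). Each list holds 25% of all 9729 genes. Among other genes, the lowest list held 25.7% (24.8 to 26.7) and the highest 24.4% (23.5 to 25.4). The intervals of far and other genes did not overlap for either of these lists, and they did for both middle lists. That genes of the lowest list lie nearer to domains was already known when the far genes were chosen, so these shares are no independent evidence of it.

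For the lowest and the highest list, the shares of genes nearer the ends of the same 24 gaps lay between those of the far genes and of all other genes. Of these 2009 genes, which share the gaps but lie under 150 kb from a domain, 22.8% were in the lowest list (21.0 to 24.7) and 26.98% in the highest (25.1 to 29.0). For both lists these intervals overlapped those of the far genes. The difference between far genes and the flanks of their own gaps was -3.72 percentage points for the lowest list and 2.67 points for the highest. Weighting other genes to the lengths of the far genes gave 23.0% for the lowest list and 25.8% for the highest. This comparison and the one with the same gaps were chosen after the data were seen.

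**Figure D2:**
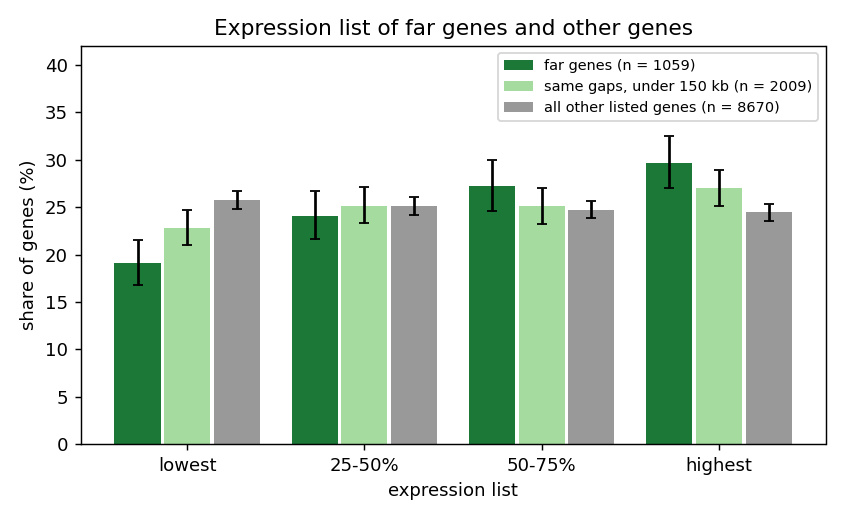
Share of genes in each expression list (vertical axis, %) for the 1059 far genes, the 2009 other genes of the same gaps and all 8670 other genes, with Wilson 95% intervals. The lowest list holds 19.1%, 22.8% and 25.7%, and the highest 29.7%, 26.98% and 24.4%.

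Within the far genes the shares did not keep one course with distance. The lowest list held 20.1% of the 522 genes at 150 to 200 kb (16.9 to 23.8), 18.4% of the 309 at 200 to 250 kb, 15.9% of the 157 at 250 to 300 kb (11.0 to 22.5) and 21.1% of the 71 at 300 kb or more (13.2 to 32.0). For the highest list the same bins gave 29.9%, 30.4%, 33.1% (26.2 to 40.8) and, beyond 300 kb, 16.9% (9.94 to 27.3). The intervals of neighbouring bins overlapped. The 71 genes at 300 kb or more lay in only 3 blocks, 38 of them in I-9, where 12 were in the lowest list and 5 in the highest. The other two blocks were I-3, with 18 such genes, and IV-2, with 15. The median distance differed little between lists, with 198 kb in the lowest, 205 kb in the 25-50% and 200.3 kb in the highest list.

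**Figure D3:**
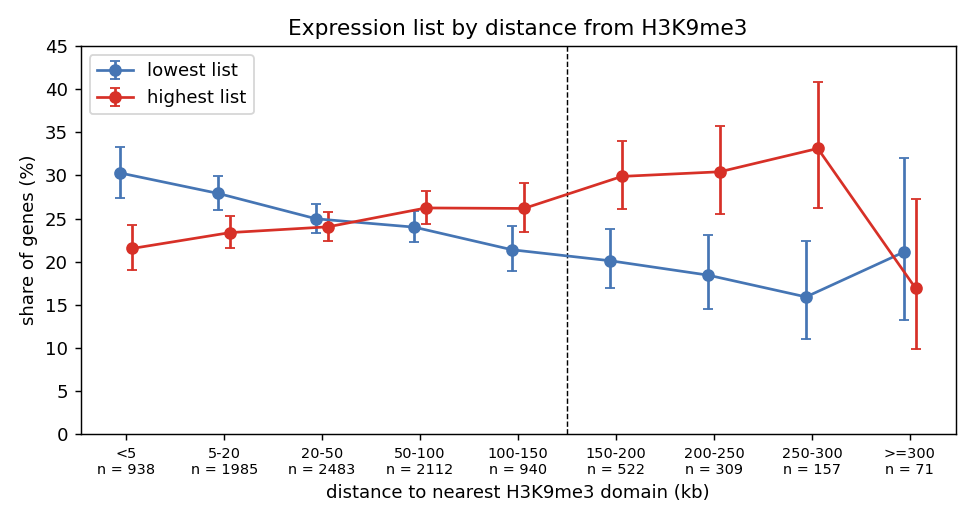
Share of the lowest and highest lists (vertical axis, %, with Wilson 95% intervals) by distance to the nearest domain in kb, with the number of genes in each bin. The far genes are right of the dashed line, where the highest list stands at 29.9 to 33.1% up to 300 kb and at 16.9% beyond.

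By linkage group, the lowest list held a smaller share of far genes than of other genes on 6 of 7, and the highest list a larger share on 6 of 7. On II the lowest list had 8 of 67 far genes (11.9%, 6.18 to 21.8) against 24.6% of other genes, and on V 10 of 83 (12.0%, 6.68 to 20.8) against 24.8%. On I, which supplied the most far genes, 17.5% of far genes (14.1 to 21.5) stood against 20.7% of other genes (18.9 to 22.5), with overlapping intervals. On VI the highest list had 30.4% of far genes (22.3 to 39.9) against 19.2% of other genes (16.7 to 21.9). On IV the lowest list held 25% of far genes (19.4 to 31.6) and 26.5% of other genes (24.2 to 29.0), again with overlapping intervals. Linkage group VII was the exception to both. Of its 62 far genes, 32.3% were in the lowest list (22.0 to 44.6) and 19.4% in the highest (11.4 to 30.9). Its other genes stood at 32.2% and 22.3%, within these intervals.

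**Figure D4:**
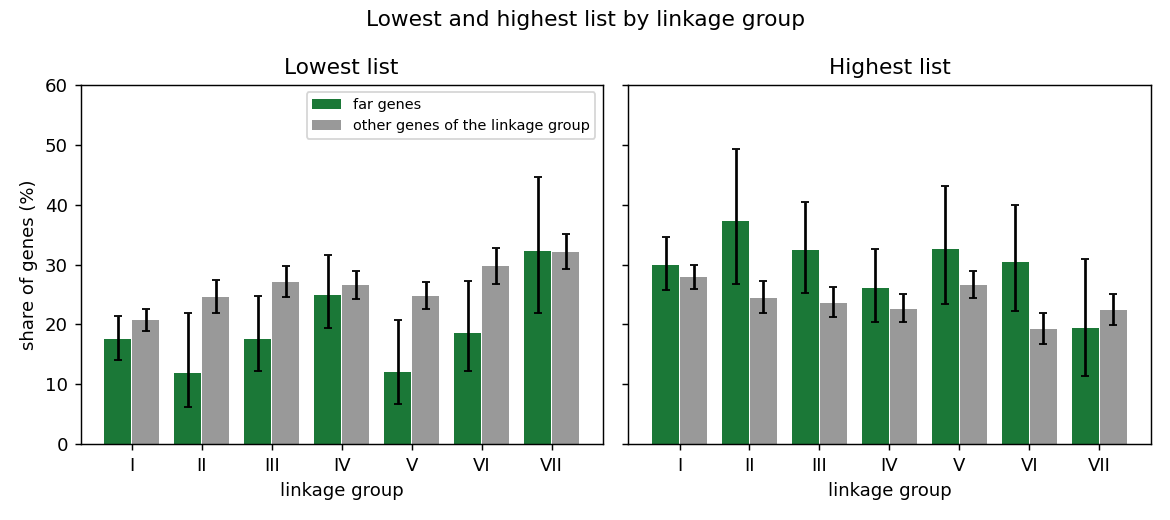
Share of genes in the lowest list (left panel) and the highest list (right panel) on each linkage group, in % with Wilson 95% intervals, for far genes and for other genes of the linkage group. On VII the 2 sets stand at 32.3% and 32.2% for the lowest list, and on II at 11.9% and 24.6%.

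Single blocks ranged widely around these shares. In the 19 blocks with at least 10 far genes, the lowest list held 5.56 to 45% of the genes (median 15.4%) and was below its share of all genes in 14. The highest list held 14.8 to 63.6% (median 32.5%) and was above its share of all genes in 13. In 5 of the 19 blocks the lowest list outnumbered the highest. Among the 40 far genes of block IV-1 (IV, 607050 to 721029), 18 belonged to the lowest and 9 to the highest list. Block I-9 (I, 8446850 to 8840275), the widest, had 32 and 25 among 124. At the other end, VI-3 (VI, 2404377 to 2445836) had 11 far genes, 1 from the lowest and 7 from the highest list. Block I-6 (I, 6752091 to 6847790) had 1 and 9 among 18, and III-5 (III, 3729383 to 3922829) 4 and 23 among 53. Block VI-3 lies in the part of VI whose positions run mirrored to those of the RefSeq table. The smallest blocks, III-1 and III-3, held 5 and 2 far genes, of which 4 and 2 were in the lowest list.

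Most stretches of neighbouring far genes from one list were short. The 202 far genes of the lowest list formed 135 runs, single genes included, of which 14 held 3 or more genes and 4 held 5 or more. The highest list had 23 runs of 3 or more among 207, and 2 of 5. Runs of other genes are not given here, so these counts describe the far genes without a comparison. The longest run of the lowest list held 10 genes in IV-1, from NCU04888 to NCU04897 (IV, 639832 to 665057, 25.2 kb). The next was 8 genes in I-9, from NCU02927 to NCU02921 (I, 8669474 to 8687732), at 304 to 321 kb from a domain. The next after it was 6 genes in IV-2, from NCU04400 to NCU04396 (IV, 3486723 to 3501593), which starts close to dim-5. The longest runs of the highest list were 2 of 5 genes, both in I-8. One held os-5, a MAP kinase kinase gene of the osmotic stress pathway, ncw-6 and the carotenoid gene al-2 between NCU00589 and NCU00584 (I, 7907356 to 7926022). The other held hom-1, the carotenoid gene al-1 and myo2 (I, 8019330 to 8042305).

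Neighbouring far genes shared a list in 310 of 1034 pairs (30.0%, 27.3 to 32.8), against 33.2% of pairs of other genes (32.3 to 34.2) and 32.9% of all 9722 pairs. The intervals overlapped. When a far gene was in the lowest list, the next gene was too in 34.4% of 195 cases, against 43.9% of 2225 cases among other genes. For the highest list these figures were 35.1% of 305 cases among far genes and 31.3% of 2111 among other genes. Set against the square of each list's own share, pairs of the lowest list were 1.78 times as frequent among far genes and 1.71 times among other genes. For the highest list the ratios were 1.18 among far genes and 1.28 among other genes.

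The median far gene was slightly longer than the median other gene. The median listed interval was 2231 bp in far genes (order-statistic 95% interval 2120 to 2300) and 2119 bp in other genes (2085 to 2154), and these intervals overlap. The order was the reverse on I, with 2107 bp in far genes and 2248 bp in other genes, and on IV, with 2079.5 and 2131 bp, and far genes had the longer median on the other 5 of 7 linkage groups. In the flanks of the same gaps it was 2221 bp. Within lists, the medians were 1257.5 bp in far genes and 1218 bp in other genes of the lowest list, and 2942 bp (2631 to 3116) and 2695 bp (2631 to 2773) in the highest list. In the 25-50% list far genes were the shorter ones, with 2022 bp (1868 to 2120) and 2107.5 bp (2057 to 2170). In every list the intervals overlapped. Of the far genes, 21.0% fell in the shortest quartile of all genes (up to 1453 bp), against 25.5% of other genes. In that quartile 54.5% of far genes were in the lowest list (47.9 to 60.9), against 62.2% of other genes (60.1 to 64.2), with overlapping intervals. In the longest quartile 50.2% of far genes were in the highest list (44.5 to 55.9), against 40.4% of other genes (38.3 to 42.5). These intervals did not overlap, while those of the highest list did in every other quartile. From 1454 to 2128 bp the lowest list held 16.6% of far genes (12.7 to 21.4) and 23.6% of other genes (21.9 to 25.4). These intervals did not overlap either, while those of the lowest list did in every other quartile.

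The longest far gene was NCU05837 on VII (3997660 to 4008544) with 10885 bp. The next was mus-21 on III (3258938 to 3268638) with 9701 bp, a gene of the DNA damage checkpoint. All 5 longest far genes were in the highest list. The 5 shortest, from NCU00783 with 288 bp to NCU04900 with 342 bp, were all in the lowest list.

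Spacing was close to that elsewhere between the domains. The median gap between neighbouring far genes was 556.5 bp (471 to 623), against 645.5 bp (620 to 671) between neighbouring other genes, some of which have a domain between them. Without those pairs the median of other genes was 602 bp (578 to 625), and in the flanks of the same gaps 562 bp. Overlapping neighbours made up 139 of 1034 far pairs (13.4%, 11.5 to 15.7), against 988 of 8638 other pairs (11.4%, 10.8 to 12.1) and 11.6% of all pairs. Gaps of 5 kb or more were 1.93% of far pairs (1.26 to 2.97), against 3.29% of other pairs without a domain between (2.92 to 3.69). The widest gap, 18383 bp, lay between NCU00911 of the highest list and NCU00907 of the lowest in I-6. The next, 13813 bp, lay between NCU01791 and NCU16557 in II-1. The strongest overlap was between NCU05540 and NCU05539 in VI-2, which share nearly their whole length. In I-7 the tyrosinase gene T of the lowest list lies inside NCU00777 of the 25-50% list. The ranks of overlapping genes are uncertain, since the signal behind them may not have been separated and the files give no true strand; this was not tested.

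Far genes stood at 29.1 per 100 kb of their blocks, against 27.5 in the flanks of the same gaps and 28.1 over all domain-free gaps. They covered 71.0% of the blocks, where genes covered 67.1% of the flanks and 66.1% of all domain-free gaps. Blocks were measured from the first to the last far gene and so begin and end in a gene. This raises density and coverage in the blocks by construction. The set of all domain-free gaps includes the blocks. In the 19 larger blocks the density ran from 18.8 genes per 100 kb in I-6 to 35.1 in IV-1. Block VI-3, with the highest share of the highest list, had 26.5 per 100 kb and VII-2, where 33.9% were in the lowest list, had 28.5.

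**Figure D5:**
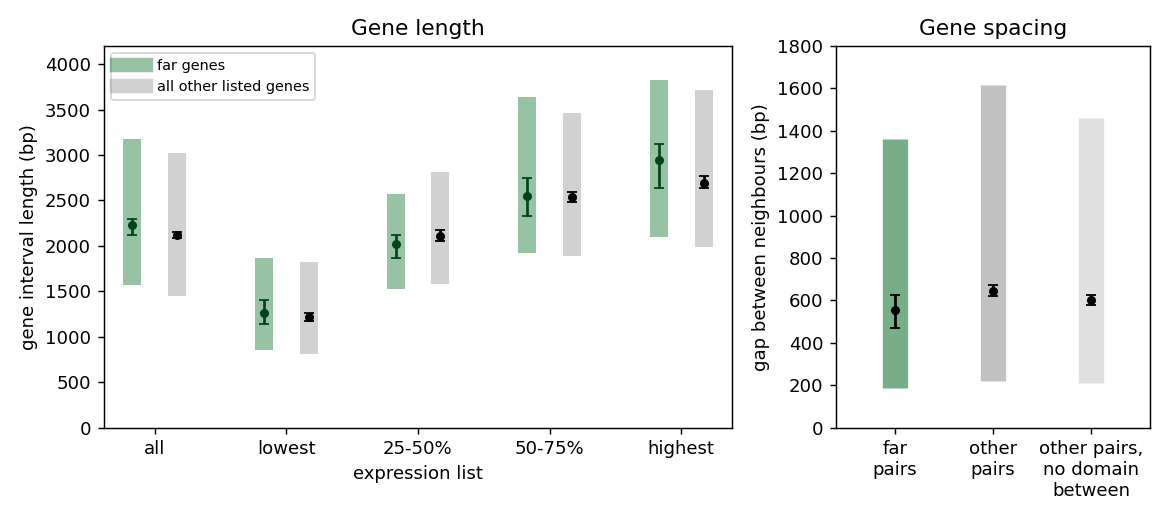
Left, gene interval length in bp for far genes and all other genes, over all genes and by expression list. Right, gap in bp between neighbouring genes, for far pairs, other pairs and other pairs with no domain between. Dots are medians with 95% intervals and thick bars the interquartile range; medians of far and other genes are 2231 and 2119 bp, and far pairs are spaced by 556.5 bp.

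Of the genes on which the study is built, his-3 and dim-5 were far genes. The study genes named here are too few for their share to be set beside the 10.9% of all genes. The locus of the tagged histone, his-3, a histidine synthesis gene used as a landing site for transgenes, lay just inside the threshold on I (4694770 to 4697885), at 151 kb from a domain, and was in the highest list. Of the 4 genes deleted in the study, dim-5 was a far gene at 261 kb (IV, 3480589 to 3482273, 25-50% list). The others were nearer to a domain, with dim-2 at 56.5 kb, hda-1 at 53.0 kb and hpo at 33.7 kb, all in the 50-75% list. The histone gene hH3 lay at 19.7 kb and vvd, the gene of the promoter, at 112 kb, both in the highest list. From the list of heterochromatin and DNA methylation genes, 3 of the 10 found by symbol were far genes, where 10.9% of all genes are. The other far genes of this list were chap, encoding the CHAP subunit of the deacetylase complex, at 154 kb (II, 2387561 to 2389731, 25-50% list), and cul-4, a cullin gene, at 267 kb (III, 3248301 to 3251897, 50-75% list). With 10 genes such a count is of little weight.

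Among the 28 light and clock genes found by symbol, 6 were far genes (21.4%), against 10.9% of all genes. The highest list held 23 of the 28 and all 6 far genes. They were wc-2, which encodes the partner of the blue-light receptor WC-1, at 179 kb in I-6 and the cryptochrome gene cry at 219 kb in I-8. The carotenoid synthesis genes al-1 (195 kb) and al-2 (208 kb) lie in I-8 too. The clock-controlled regulator gene csp-1 lay at 190.0 kb in I-4 and the regulator gene sub-1 at 226 kb in V-1. Thus 3 of the 6 shared a single block, I-8, and are not independent placements.

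Genes of respiratory complex I, of amino acid synthesis and of housekeeping were among the far genes. The shares of these lists were among the larger ones. Their counts are to be read beside the 10.9% of all genes and the 12.8% over all 24 lists. Of the 2433 genes in the highest list, which held all 8 housekeeping genes, 314 were far genes. Respiratory complex I is the entry point of electrons into the mitochondrial chain. Of its 29 genes found by the symbol start nuo, 7 (24.1%) were far genes: nuo49, nuo78, nuo14.8, nuo13.4, nuo24, nuo9.8 and nuo19.3. They lay in 6 blocks at 155 to 281 kb, and all 29 genes of the family were in the highest list. Of 60 genes in the amino acid and sulfur list, drawn by symbol and not by function, 13 (21.7%) were far genes. They lay at 150 to 314 kb, and 8 were in the highest list. Among the 13 were leu-1 and leu-2 of leucine synthesis, and lys-3 and lys-7 of lysine synthesis. Others were arg-6 of arginine synthesis, trp-4 of tryptophan synthesis and cys-14, a sulfate permease gene. Of those named, leu-2 was in the 25-50% list, and lys-3 and trp-4 were in the 50-75% list. Of the 8 housekeeping genes, 3 were far genes: tef-1 (161 kb), encoding an elongation factor of translation, am (229 kb), encoding a glutamate dehydrogenase, and his-3, which is also among the amino acid genes.

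The other lists held 0 to 4 far genes each, with shares on both sides of the 10.9% of all genes. The share was 27.3% of G protein genes and 20% of peroxisome genes. It was 5.06% of carbohydrate enzymes and 5.66% of stk kinases. The lists with none held 1 to 15 genes, so a count of 0 carries little weight. There was none among 7 histone genes, 10 genes of RNA and meiotic silencing, 8 of purine and pyrimidine synthesis, 15 of the proteasome list, 5 of the nitrogen family, 1 of H3K27 methylation and 1 of incompatibility. The proteasome list was drawn by the start of symbols and holds the pca and pcb genes of the core particle, not the regulatory particle, and it also took in pre-1 and pre-2, which are known as pheromone receptor genes. The enzymes of carbohydrate breakdown had 4 far genes of 79 (gh61-8 and gh18-4 in the lowest list, gh61-3 in the 25-50% list and gh47-4 in the 50-75% list). Serine-threonine kinases of the stk family had 3 of 53, all in the highest list. Peroxisome genes had 4 of 20, among them pex5, which encodes an import receptor, at 278 kb. The DNA repair list, drawn by symbol and not by function, had 3 of 26 (uvs-6, mus-21 and uvs-5). Vacuolar ATPase genes had 2 of 14 (vma-1 and vma-7) and G protein genes 3 of 11 (gnb-1, gpr-1 and gpr-5). Cell fusion and MAP kinase genes had 2 of 19, os-5 and ham-5, which encodes a scaffold of the fusion pathway. Of 13 genes of asexual development, csp-1 was the far gene. The remaining far genes of the lists were crp-15 of 7 ribosomal protein genes, ro-2 of 12 motor protein genes, erg-4 of 3 sterol genes and chs-6 of 5 chitin synthase genes. Over all 24 lists, 56 of 437 genes (12.8%) were far genes, near the 10.9% of all genes. Of the 56, 36 (64.3%) were in the highest list and 4 (7.14%) in the lowest, against 174 (45.7%) and 35 (9.19%) of the 381 list genes that were not far genes.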

How the data were processed

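The authors deposited gene intervals in 4 lists, ranked by expression in the wild type, and H3K9me3 domains in 1 list. The lists carry positions only and no other value was used. Bowtie2, HOMER, SICER and deepTools are named in the submitters' processing notes, with settings not given in the sources used here. Starts in the files count from 0 and were raised by 1 for printing; the domain list has 10 blank lines. Genes were named from a RefSeq table for NC12: 9490 intervals had the same position, 238 on VI between 1851685 and 2769626 (11 of them far genes) had the mirrored one, and 1 stayed unnamed. Coordinates are those of the files.

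Shares, medians and intervals were computed with Python 3.11.15, pandas 2.3.3 and scipy 1.17.1 and checked on simulated data. Gaps run from the end of a gene to the start of the next. The members, the lists of genes by symbol and the rule for named genes (list members, extremes of distance, length and gap, block ends, longest runs) were chosen with earlier results of these data known. Alternatives changed the distance, the domains, the linkage groups and the genes set against the members. GC content was not run, as no sequence was used. Depth is unknown, and replicates behind the lists cannot be separated.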

Additional observations from a re-analysis of the deposited data

How the results depend on the processing

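The 5 shares and medians kept their direction against the other genes in every alternative run. The number of far genes, 1059, became 1999 with 100 kb as the distance, 537 with 200 kb, 1634 with only domains of 3 kb or longer, 2800 with only domains of 10 kb or longer, and 648 without linkage group I. The far genes found in the gene lists, 56, became 93 with 100 kb, 28 with 200 kb, 140 with domains of 10 kb or longer and 34 without I. The share in the lowest list kept within its interval in 17 of 18 alternatives. With equal weight for each block it was 23.8%, against 25.7% of other genes. The difference was then -1.96 percentage points, where the main setting gave -6.66. In this alternative the 5 smallest blocks weigh as much as the largest. Of these, III-1 and III-3 had 80% and 100% in the lowest list, and I-2, I-5 and VII-1 had 11.1 to 16.7%. The share in the highest list stayed between 27.1% and 30.4% in 18 alternatives, the median length between 2199 and 2281.5 bp in 17, and the share of same-list neighbours between 28.9% and 31.6% in 16. The median gap was 431 bp with 200 kb as the distance, 668 bp with locus tags below NCU10000, and 697 bp with overlapping pairs left out; the other 16 alternatives kept within its interval. Against the flanks of the same gaps the difference in median length was 10.0 bp and in median gap -5.50 bp. No paired analysis was possible because the files hold no values per library. The planned GC content of promoters was not run.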

Other observations

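Genes with a symbol were mostly well expressed in both sets. Of the 140 far genes with one, 60% were in the highest list (51.7 to 67.7) and 5% in the lowest (2.44 to 9.96). Of the 978 other genes with a symbol, 48.1% were in the highest list (44.9 to 51.2) and 6.34% in the lowest.

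Some families were looked up after the symbols of far genes had been seen, so their counts are a description, to be read beside the 10.9% of all genes that were far genes. The list of SET domain genes held 9 genes and left out dim-5. Of these 9, set-1 (196 kb, 50-75% list), set-2 (263 kb, 25-50% list) and set-4 (213 kb, highest list) were far genes. Of 5 histone acetyltransferase genes, hat-2 lay at 317 kb in the highest list and hat-6 at 231 kb in the 25-50% list. Of 5 actin-related genes, arp-3, arp-4 and arp-8 were far genes. Mitochondrial import had 4 of 18 (tim50, tim13, tom22 and tom40). The proteasome regulatory particle had 2 of 17 (11.8%), rpn-10 at 217 kb and rpt-5 at 290 kb, and the tricarboxylic acid cycle family tca had 2 of 16 (12.5%).

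RNA genes of the RefSeq table, which are in none of the lists, were measured by the same rule outside the mirrored part of VI. Of 391 tRNA genes, 41 (10.5%, 7.82 to 13.9) lay 150 kb or more from a domain, as did 18 of 175 genes for other non-coding RNA (10.3%, 6.61 to 15.7) and 5 of 75 rRNA genes (6.67%, 2.88 to 14.7), against 11.0% of 9493 protein-coding genes. Among far genes, 8.78% (7.22 to 10.6) had a locus tag from NCU10000 on, against 9.93% of other genes (9.32 to 10.6).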
